A study of Drosophila melanogaster with 10 samples.

Results

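The autophagy genes Atg1, Atg2, Atg5, Atg6, Atg7, Atg8a, Atg8b, Atg9 and Atg18 were examined in the RNA of S2 cells, a Drosophila line derived from embryos. The genes were chosen by name. A list of 10 symbols was matched to the gene symbols of the expression table, and 9 of them had an entry, with 18 transcript entries among the 30551 entries and 15240 gene symbols of the table. The tenth, Atg3, had no entry under that symbol, and the entry that carries its transcript is described apart under the older name Aut1. There are 10 samples in the series, in 5 groups with 2 replicates each. The groups are chromatin immunoprecipitations of biotin-tagged Polyhomeotic (PH-WT) and of its polymerization mutant (PH-ML), the input DNA of each, and total RNA depleted of ribosomal RNA from S2 cells that carry neither transgene (WT in the labels). Per the labels, 0.5 mM copper sulphate was added for 3 days to all of them, including the S2 RNA cells. The 2 S2 RNA libraries, replicates 1 and 2, are analysed here, and the remaining 8 samples are not. No label names starvation, and both S2 RNA libraries come from cells given copper sulphate. What follows is thus the level of these RNAs in a single culture condition of 1 cell line. Whether copper changed these levels was not tested.

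Autophagy encloses portions of cytoplasm in a double membrane, the autophagosome, and delivers them to the lysosome for breakdown. The kinase Atg1 starts the process, and a lipid kinase complex that contains Atg6 (the fly Beclin) marks the site where the membrane forms. Atg9 vesicles, Atg2 and Atg18 feed the growing membrane with lipid. A pair of ubiquitin-like systems, which share the activating enzyme Atg7, then attach Atg8 to lipid on that membrane. In flies, autophagy has been studied most in the fat body, where starvation and the moulting hormone induce it. Drosophila has a pair of Atg8 genes, of which Atg8a acts broadly and Atg8b is known mainly from the male germ line.

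Levels are given in RPKM, reads scaled to transcript length and library size. They can therefore be set side by side between genes. The level of a gene is the median over its transcript entries in each library, and errors are the SD over the 2 libraries. With 2 values, that SD can fall below counting error. Whole reads leave steps in the values, and these gave a library size of 37054213 reads in replicate 1 and 9495835 in replicate 2, so replicate 1 was 3.90-fold deeper. Reads recovered for single transcripts are minimum values, since a factor shared by reads and length cannot be seen. The blood cell genes that mark S2 cells were present, with all 5 of those listed at 1 RPKM or more. All 3 ovary genes and all 3 fat body genes listed were under 1 RPKM, and of the 3 neuron genes elav alone was higher, at 2.31 and 3.34 RPKM. Over all 15240 genes, 49.5% reached a mean of 1 RPKM, so these short lists are a rough guide. In bulk RNA, a small number of cells with much of an RNA cannot be told apart from many cells with little of it.

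Transcripts of 8 of the 9 autophagy genes were found at 1 RPKM or more in both libraries, and Atg8b was listed at 0 in both. Across all genes of the table, 49.5% reached a mean of 1 RPKM. A mean of 5 RPKM was reached by 6 of the 9, against 29.5% of all genes. The median level of the 9 genes was 6.02 RPKM, where that of all genes was 0.898 RPKM. The 7548 genes that reached 1 RPKM on average had a median of 6.33 RPKM, with 3 of the 8 expressed autophagy genes above it and 5 below. The autophagy genes were thus spread through the range of expressed genes. Within the 8, the highest, Atg8a, exceeded the lowest, Atg7, by 13.0-fold in replicate 1 and 18.3-fold in replicate 2.

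**Figure D1:**
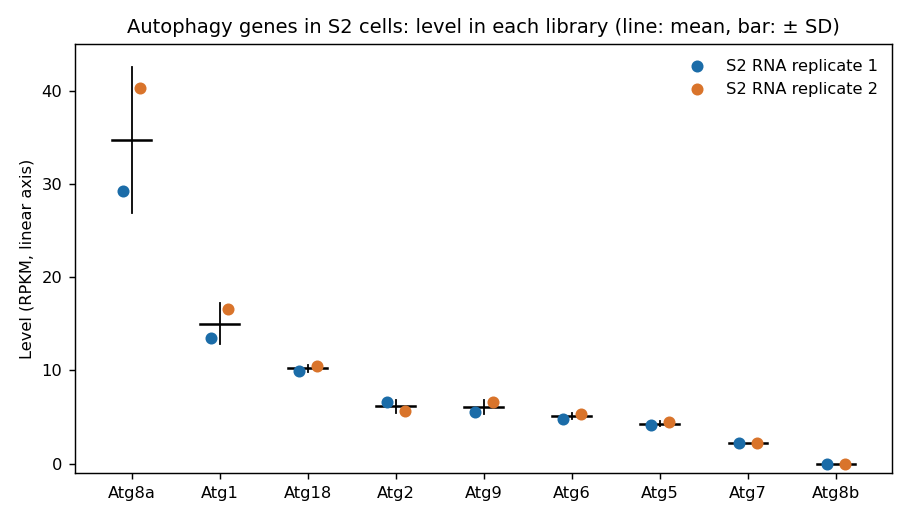
Level of each of the 9 autophagy genes in RPKM (linear vertical axis), ordered by mean. Points are the S2 RNA libraries, horizontal lines their mean and vertical bars the SD over the 2 libraries. Atg8a lies at 29.2 and 40.3 RPKM, above every value of the other genes, and Atg8b lies at 0 in both libraries.

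Atg1, the kinase that starts autophagosome formation and is the fly counterpart of mammalian ULK1, was the second highest of the 9 genes. It had 13.4 and 16.6 RPKM in replicates 1 and 2, a mean of 15.0 ± 2.23 RPKM (SD, n = 2). Both values were above those of every other member but Atg8a. Atg1 had 2 transcript entries, and they were close, with 12.95 and 16.2 RPKM for NM_140344 and 13.9 and 17.0 RPKM for NM_001169962 in replicates 1 and 2. NM_140344 rested on at least 1962 and 629 reads. In the RefSeq annotation of a later genome release the gene CG42709 overlaps Atg1. CG42709 itself had 6.04 and 5.01 RPKM here, and whether the counting used strand is not given in the sources used here.

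Atg6 is the Beclin subunit of the lipid kinase complex that marks the site of membrane growth. It had a single transcript entry, with 4.83 and 5.29 RPKM in replicates 1 and 2, a mean of 5.06 ± 0.328 RPKM (SD, n = 2). The libraries fall on either side of 5 RPKM, so its place above that minimum depends on the library. The entry rested on at least 267 and 75 reads.

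Atg9, Atg2 and Atg18 act together in supplying lipid to the growing membrane. Atg18, a WIPI protein that binds the lipid made by the Atg6 complex, had 9.98 and 10.5 RPKM in replicates 1 and 2, a mean of 10.2 ± 0.379 RPKM (SD, n = 2). Atg2, a large protein that carries lipid between membranes, had 6.59 and 5.67 RPKM, a mean of 6.13 ± 0.652 RPKM. Atg9, the transmembrane protein that equilibrates lipid across the bilayer, had 5.50 and 6.57 RPKM, a mean of 6.04 ± 0.758 RPKM. Atg18 was above both of its partners in each library, and the values of Atg2 and Atg9 overlapped. The ratio of Atg2 to Atg9 was 1.20 in replicate 1 and 0.862 in replicate 2, so the order of these neighbours changed with the library.

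Atg18 had 6 transcript entries, the most of any of the 9 genes. Their means lay between 9.84 and 11.6 RPKM, a 1.17-fold range. The reads behind them were nearly equal, from 826 to 855 in replicate 1 and from 223 to 233 in replicate 2. Recovered lengths went from 1980 to 2382 bases, a 1.20-fold range against 1.04-fold for the reads of replicate 1. The entries thus differed more in length than in reads, and the entry of the shortest transcript, NM_001274635, had the highest RPKM. The 2 entries of Atg9 were identical in both libraries, and those of Atg2 had the same 1529 and 337 reads on 6266 and 6259 bases. Entries of 1 gene overlap and are not independent measurements, and every entry of the 5 genes with several was above 0 in both libraries.

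Atg5 and Atg7 belong to the conjugation systems. Atg5 is joined to Atg12 and helps place Atg8 on the membrane. It had 4.11 and 4.47 RPKM in replicates 1 and 2, a mean of 4.29 ± 0.258 RPKM (SD, n = 2). Atg7, the enzyme that activates both Atg8 and Atg12, was the lowest of the 8 expressed genes. It had 2.24 and 2.20 RPKM, a mean of 2.22 ± 0.0288 RPKM. In replicate 2, Atg5 and Atg7 rested on at least 60 and 49 reads, so counting error can exceed these SDs. Of the genes at 1 RPKM or more, 13.7% were below Atg7. Atg5 exceeded Atg7 by 1.83-fold in replicate 1 and 2.03-fold in replicate 2. In the later annotation Atg5 is overlapped by CG1677 and a long non-coding RNA gene, and Atg7 by CG5335. These neighbours had levels of their own, with 11.0 and 11.5 RPKM for CG1677 and 4.93 and 3.90 RPKM for CG5335, so the levels of Atg5 and Atg7, like that of Atg1, are less certain than the others.

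Atg3 is the enzyme that transfers Atg8 to lipid. Its RefSeq transcript, NM_140802, was listed in the table as Aut1, an older name of the gene. Aut1 had 7.36 and 6.99 RPKM in replicates 1 and 2, a mean of 7.17 ± 0.265 RPKM (SD, n = 2). It exceeded Atg7 by 3.29-fold in replicate 1 and 3.18-fold in replicate 2. With Aut1 counted as Atg3, a choice made after its values were seen, 9 of 10 genes were at 1 RPKM or more and 7 at 5 RPKM or more.

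Atg8a and Atg8b encode the ubiquitin-like proteins that are attached to the autophagosome membrane, the counterparts of mammalian LC3 and GABARAP. Atg8a was the highest of the 9 genes in each library, with 29.2 and 40.3 RPKM in replicates 1 and 2, a mean of 34.7 ± 7.83 RPKM (SD, n = 2). Its single entry, NM_167245, rested on at least 1310 and 463 reads, which gives exact 95% Poisson intervals of 27.6 to 30.8 RPKM and 36.7 to 44.1 RPKM. The intervals reflect counting alone, and reads that carry no molecular identifier are not independent molecules. Atg8a alone made up 38.5% and 44.0% of the summed RPKM of the 9 genes. It exceeded Atg1, the next in order, by 2.17-fold in replicate 1 and 2.43-fold in replicate 2. Of all genes, 95.8% had a lower mean.

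Atg8b, by its single entry NM_142392, was listed at 0 RPKM in both libraries. A value of 0 in both libraries was found for 11.2% of all genes. At these depths the limit set by 3 reads on 1 kb of transcript for replicates 1 and 2 was 0.081 and 0.316 RPKM. With Atg8b at that limit, Atg8a was at least 361-fold higher in replicate 1 and at least 127-fold higher in replicate 2. The length of the Atg8b transcript cannot be recovered from a value of 0, and at 500 bases the same 3 reads would give bounds of 180-fold and 63.7-fold. On the log2(RPKM + 1) scale the ratio of Atg8a to Atg8b was 4.92 and 5.37, a mean of 5.14 ± 0.32 (SD, n = 2), and its size is set by the pseudocount because Atg8b is at 0. The SD of this ratio is the spread of Atg8a alone, since Atg8b is at 0 in both libraries. An exact test over 2 libraries cannot give a p below 0.5, so none is attached. The genes are related in sequence, and how reads that fit both were counted is not stated.

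Since Atg8b is known from the male germ line, 11 genes of the testis were read beside it. Of these, 9 were under 1 RPKM, where 7692 of all 15240 genes were, and the list median was 0.0283 RPKM. The protamine genes ProtA and ProtB, listed as Mst35Ba and Mst35Bb, were at 0 in both libraries. The exceptions were mia at 3.76 and 3.38 RPKM and topi at 22.8 and 7.74 RPKM, which both encode regulators of the meiotic arrest class. The log2 ratio of topi reads, replicate 2 over replicate 1 scaled to library size, was -1.56, so its level is uncertain. The summed level of the 11 genes was 27.6 and 11.7 RPKM in replicates 1 and 2, most of it topi. Atg8b was thus listed at 0 in cells where most, but not all, of the testis genes read with it were near 0.

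The order of the 9 genes by mean was Atg8a, Atg1, Atg18, Atg2, Atg9, Atg6, Atg5, Atg7 and Atg8b. Neighbours in this order had library values that did not overlap, except Atg2 and Atg9. These are point values, and the order was not tested against counting error. In replicate 2, Atg6 and Atg5 rested on at least 75 and 60 reads. The gap between Atg9 and Atg6 was 0.980 RPKM, against SDs of 0.758 and 0.328 RPKM. That between Atg6 and Atg5 was 0.769 RPKM, against SDs of 0.328 and 0.258 RPKM. An exact test over 2 libraries is limited to a p of 0.5 or more, so none is attached to these steps. The steps from Atg8a to Atg1 and from Atg5 to Atg7 were each above 1.8-fold in both libraries.

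Further genes of the pathway, 22 in all, place these levels by role. All 22 had a mean of at least 1 RPKM and 13 had at least 5 RPKM, and their median was 5.45 RPKM. Overlapping genes were not looked up for these 22. In the initiation complex, Atg1 was above its partners, though its level is less certain because CG42709 overlaps it. The regulatory subunit Atg13 had 7.37 and 10.7 RPKM in replicates 1 and 2. The scaffold Atg17, listed as CG1347, had 6.51 and 7.58 RPKM. The small subunit Atg101, listed as CG7053, had 3.05 and 2.62 RPKM. Atg1 exceeded Atg13 by 1.82-fold and 1.55-fold, Atg17 by 2.06-fold and 2.19-fold, and Atg101 by 4.41-fold and 6.34-fold.

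The lipid kinase complex was more even. The catalytic subunit Pi3K59F, the fly Vps34, had 3.72 and 4.86 RPKM, and its pseudokinase partner Vps15, listed as ird1, had 3.54 and 3.19 RPKM. Atg14, listed as CG11877, directs the complex to autophagy and had 5.67 and 4.97 RPKM. Uvrag, which takes the place of Atg14 in an endosomal form of the complex, had 4.88 and 5.87 RPKM. The ratio of Atg6 to Pi3K59F was 1.30 and 1.09, that to Vps15 1.36 and 1.66, that to Atg14 0.851 and 1.07, and that to Uvrag 0.988 and 0.901. Atg6 thus lay within 1.7-fold of each partner in both libraries.

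Of the conjugation genes, Atg12 had 3.34 and 5.16 RPKM and Atg16, which binds the Atg5 and Atg12 conjugate, had 5.16 and 4.57 RPKM under the name CG31033. The ratio of Atg5 to Atg12 was 1.23 in replicate 1 and 0.866 in replicate 2, and that of Atg5 to Atg16 was 0.796 and 0.978, so no order within this conjugate held in both libraries for Atg5 and Atg12. The protease Atg4, which processes Atg8, had 5.28 and 6.09 RPKM, and its relative Atg4b, listed as CG6194, had 2.83 and 2.77 RPKM. Atg10, the enzyme that joins Atg12 to Atg5, had 2.54 and 3.18 RPKM under the name CG12821. Atg8a exceeded Atg4 by 5.53-fold and 6.61-fold. Atg8a was thus above both Atg4 genes in each library.

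The WIPI relatives of Atg18 were lower than Atg18. Atg18b, listed as CG8678, had 6.29 and 5.28 RPKM, and CG11975 had 4.98 and 6.15 RPKM. Atg18 exceeded Atg18b by 1.59-fold and 1.99-fold, and CG11975 by 1.86 ± 0.207-fold (mean ± SD of the ratio, n = 2). Of the cargo receptors, ref(2)P, the fly counterpart of p62, which binds ubiquitin and Atg8, was the highest gene of the pathway at 76.5 and 89.2 RPKM. The ratio of Atg8a to ref(2)P was 0.382 in replicate 1 and 0.452 in replicate 2. The scaffold bchs, a large protein linked to the clearance of aggregates, had 2.83 and 2.10 RPKM. The 5 genes of fusion with the lysosome (Syx17, Snap29, Vamp7, Ykt6 and Epg5) had means from 5.56 to 15.6 RPKM, with Vamp7, listed as CG1599, the highest. The transcription factor Mitf, which in flies drives lysosomal and autophagy genes, had 2.93 and 2.61 RPKM.

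**Figure D2:**
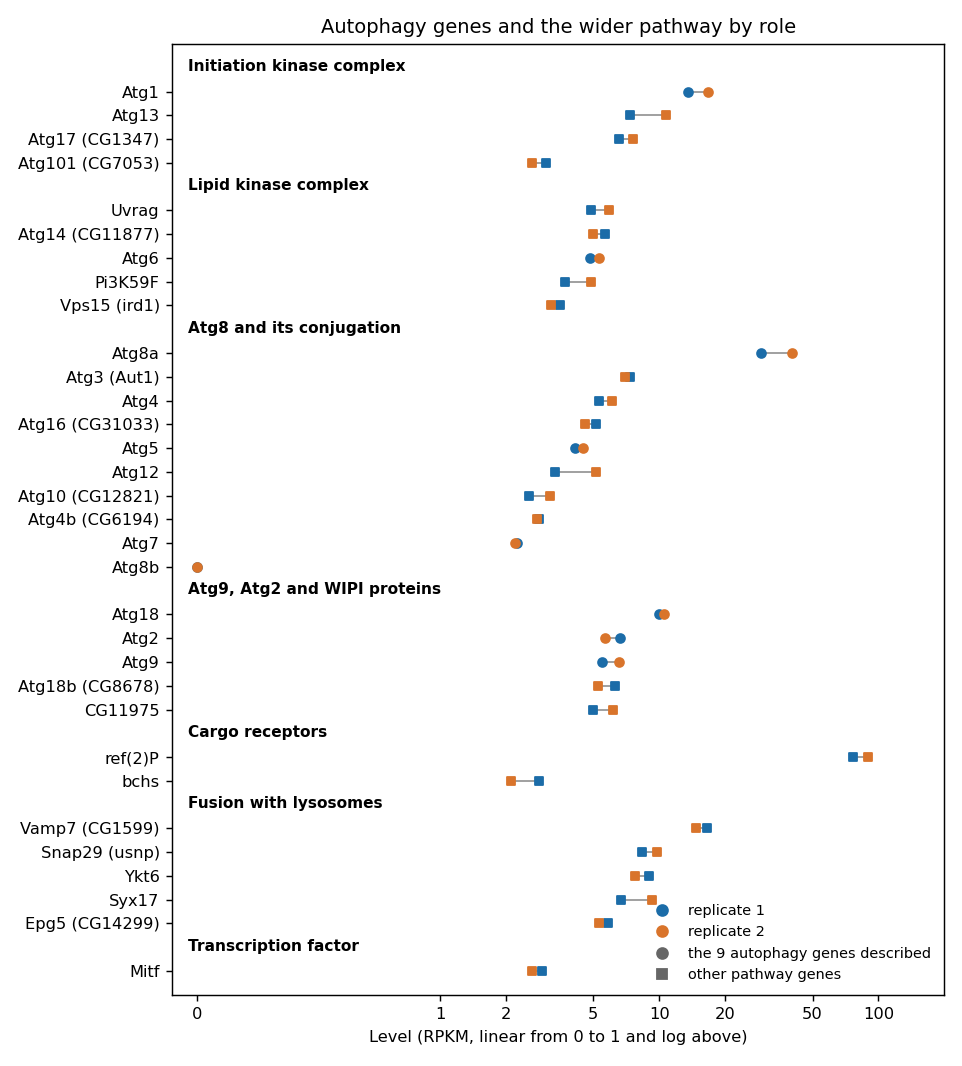
Level of the 9 autophagy genes (circles), of 22 further pathway genes and of Atg3 (squares) by role, in RPKM on an axis that is linear from 0 to 1 and logarithmic above. Blue and orange mark replicates 1 and 2, and names in brackets are those of the table. The highest gene is ref(2)P at 76.5 and 89.2 RPKM, followed by Atg8a, and Atg8b is the single gene at 0.

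The replicates differ in depth, and the SD between them is the error given with every level. That SD does not measure counting error, which weighs most on genes with few reads. Among the 8 expressed genes, 6 were higher in replicate 2 and 2, Atg2 and Atg7, were higher in replicate 1. The median log2 difference (replicate 2 minus replicate 1, on the log2(RPKM + 1) scale) of the 9 genes was 0.10, and that of all genes that reached 1 RPKM on average was 0.01 with an SD of 0.29. The largest was that of Atg8a, at 0.45. Among the 873 protein-coding genes with a mean from 20 to 100 RPKM, the median difference was 0.08 and 96.1% were below Atg8a. Atg1 differed by 0.28, with 88.6% of the 3185 protein-coding genes from 5 to 20 RPKM below it. The median difference of protein-coding genes was -0.04 from 1 to 5 RPKM and 0.02 from 5 to 20 RPKM. Atg8a and Atg1 thus lay above most genes of their own level.

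**Figure D3:**
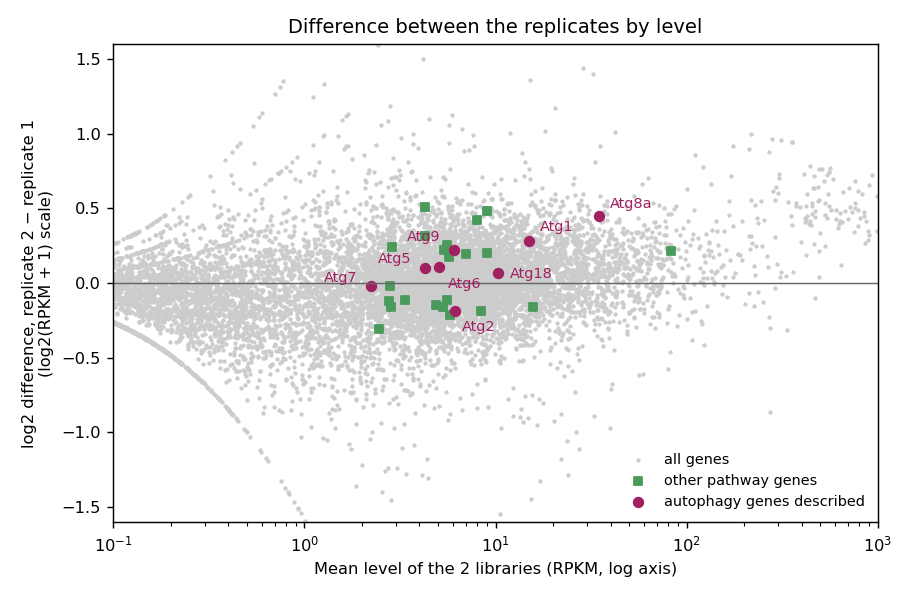
Difference between the replicates (vertical axis, replicate 2 minus replicate 1 on the log2(RPKM + 1) scale) against the mean level (horizontal axis, RPKM, logarithmic). Grey points are all genes in the plotted range, green squares the 22 pathway genes and red points the 8 expressed autophagy genes, which are named. Atg8a lies highest of the 8 at 0.45 and Atg2 lowest at -0.19, and the arcs at the left are genes at 0 in a single library.

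The recovered reads were tested by an exact binomial test (two-sided) for whether these differences exceed counting error, with the transcript of most reads for each gene and Benjamini-Hochberg adjustment over all 9729 genes tested. The adjusted p was under 0.05 for 2 of the 8 autophagy genes tested, or 25%, against 13.5% of all genes. All 8 lie above 1 RPKM, and weaker genes with few reads are harder to call. With testing and adjustment limited to the 7440 genes at that level, 17.7% were called. Both autophagy genes called were higher in replicate 2, a direction in which 8.34% of all genes were called. None (0) was called higher in replicate 1, against 5.12% of all genes. Atg8a had 1310 and 463 reads in replicates 1 and 2, a log2 ratio of 0.46 (95% interval 0.31 to 0.62) and an adjusted p of 2.41e-07. Atg1 had at least 1962 and 629 reads, a log2 ratio of 0.32 (0.19 to 0.45) and an adjusted p of 3.94e-05 in the exact test. The binomial test compares 2 libraries of 1 group and no condition, so the calls show only that Atg8a and Atg1 differed between the libraries by more than counting error.

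For Atg2 the log2 ratio of reads was -0.22, with an interval of -0.39 to -0.05, and for Atg9 it was 0.26, with an interval of 0.01 to 0.50. Their adjusted p in the exact binomial test was 0.0789 and 0.189. Atg2, with at least 1866 reads in all, was thus lower in replicate 2 by a margin that did not pass over all genes. Atg5, Atg6, Atg7 and Atg18 had adjusted p-values of 0.714 or more. The intervals of Atg5, Atg6 and Atg7 were wide, and that of Atg18, from -0.13 to 0.30, was narrower. The interval of Atg7, with at least 245 reads, went from -0.52 to 0.42. Differences within it could not be told from 0 on these minimum reads.

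Of the 22 pathway genes, 4 had an adjusted p under 0.05 in the exact binomial test, or 18.2%, against 13.5% of all genes. All 4 were higher in replicate 2, where 8.34% of all genes were called. The share called lies near the 17.7% found when testing was limited to genes at 1 RPKM or more, and nothing is read from it. Atg13 had a log2 ratio of reads of 0.54 and Atg10 one of 0.54, with adjusted p-values in the exact test of 1.58e-06 and 0.00181. ref(2)P and Atg17 each had a ratio of 0.22, with adjusted p-values in the exact test of 2.41e-07 and 0.0408. The call of Atg17 was lost when the libraries were scaled to the median gene, with an adjusted p of 0.0612. For Atg10 the test rests on the longer of its 2 entries, at 3.24 and 4.70 RPKM, and the other entry was at 1.84 and 1.67 RPKM. Atg101, the remaining partner of Atg1, had an adjusted p of 0.701 in the exact test.

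**Figure D4:**
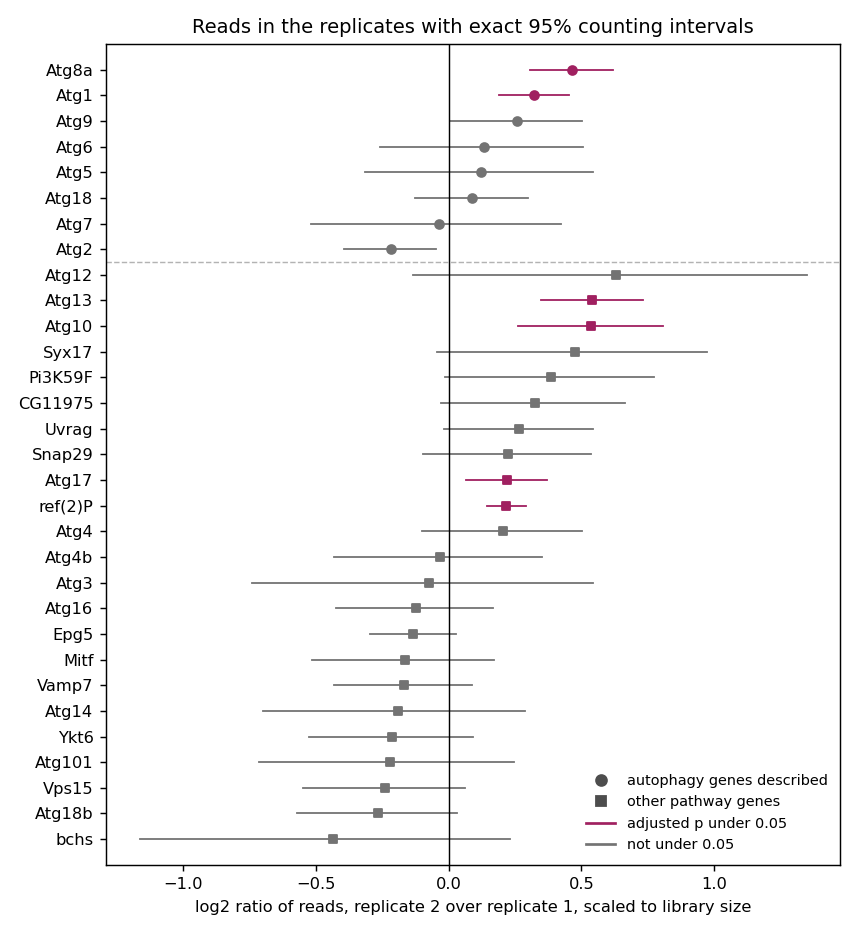
Ratio of reads in replicate 2 over replicate 1, scaled to library size, on a log2 axis, for the 8 expressed autophagy genes (circles, above the dashed line), the 22 pathway genes and Atg3 (squares). Bars are exact 95% counting intervals from the minimum reads, and red marks an adjusted p under 0.05. Atg8a and Atg1 lie highest of the 8 and are called, and the intervals of Atg5, Atg6, Atg7 and Atg18 include 0.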

How the data were processed

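Per the labels, total RNA of S2 cells was depleted of ribosomal RNA and sequenced as single-end reads of 50 bases. The authors aligned reads with TopHat (the submitters' processing notes list TopHat2 2.4 and BWA 0.5.9-r16) to release 5 of the Drosophila genome (dm3). The deposited values are RPKM per RefSeq transcript, and the program that made them is not given in the sources used here. The study calls its RNA-seq replicates biological.

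Whole reads were recovered from the ratio of both columns for 98.9% of 23661 entries above 0 in both libraries, where whole means that a fraction matched the ratio within rounding (a relative 2e-09 plus 6e-10 RPKM per value) and fewer than 0.1 fractions as simple would match by chance. Library sizes were those that made transcript lengths whole within 0.02 bases, which held for 69.1% of 12300 entries, against 33.7% at double the size. The reads and the limit set by 3 reads rest on these sizes. The binomial test covered genes with at least 10 recovered reads, and a gene at 0 in a library was not tested. The fold scale was log2(RPKM + 1), with a pseudocount of 1. The RefSeq table of Release 6 was used for names and for which genes overlap, and none of its coordinates is given. The genes and lists were chosen with earlier results of these data known: the 10 symbols, 22 pathway genes (11 found by symbol, 10 by an older symbol, 1 by transcript) and markers of blood cells, testis, ovary, neurons and fat body. All genes named follow these lists, save overlapping neighbours and Aut1. No gene of like pattern was sought, since 2 libraries of 1 condition hold none. The recovery and the test were tried on simulated data. For the recovery, this checked the ratio of library sizes and the reads up to a shared factor. The library sizes and transcript lengths were not checked. For the test, the simulated reads of unchanged genes varied by counting alone. Python 3.11.15, scipy 1.17.1 and pandas 2.3.3 were used.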

Additional observations from a re-analysis of the deposited data

How the results depend on the processing

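No paired analysis was possible because a single group, S2 RNA, was analysed and no result compares groups. The log2 ratio of Atg8a to Atg8b was 8.43 with a pseudocount of 0.1 in place of 5.14, by construction, since Atg8b is at 0, and it ranged from 4.92 to 5.37 when 1 replicate was left out. The median level of the autophagy genes ranged from 5.50 to 5.67 RPKM when 1 replicate was left out, in place of 6.02 RPKM. The middle gene was Atg9 in replicate 1 and in the average, and Atg2 in replicate 2. The number at 5 RPKM or more was 5 when both replicates had to reach it or replicate 2 was left out, which drops Atg6. The highest transcript in place of the median gave Atg18 11.6 RPKM and Atg7 2.26 RPKM. It gave Atg1 15.5 RPKM and the mean over transcripts gave Atg18 10.5 RPKM, both within the SD between replicates. The number of autophagy genes whose reads differ remained 2 under both alternatives, Atg8a and Atg1. Leaving out 1 of 2 replicates moves a gene's mean by less than that SD by construction and says nothing of stability. Depth limits what can be said of Atg8b to a bound from 3 reads. Promoter motifs and the protein identity of Atg8a and Atg8b were planned and not run, since no sequences were used here.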
